A study of Mus musculus with 36 samples.

Results

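The dose step examined here set the livers of *Gulo*-/- females given 0.05% ascorbate in drinking water (FGL05) beside those of *Gulo*-/- females given 0.01% (FGL01), with 3 mice in each group. A gene was taken into the comparison where its level in TPM, the length-adjusted share of all transcripts, lay above 0 in at least 4 of the 6 mice, which held for 18922 of the 36066 genes in the table, and the 6 mice were part of 36 sequenced mice in 12 groups. Both groups lacked a working gulonolactone oxidase, which completes ascorbate synthesis in mice, so neither could make its own vitamin. They drank their dose, in weight per volume, from weaning to the age of 4 months on a standard diet, and the livers were taken whole after an overnight fast. The comparison asks which liver transcripts differ between a very low and a moderate lifelong supply. Levels are also given for the female *Gulo*-/- groups that received 0.4% ascorbate since weaning (FGL40) or 0.4% until 3 months of age and none for the last 4 weeks (FGL00), and for the males on the same 2 doses (MGL05 and MGL01). The tests took their estimate of variation from all 18 females. These also included wild type *Gulo*+/+ females without supplement (FWT00) and *Gulo*-/- females given back 0.4% ascorbate after its removal (FGLR40). The comparison of the sexes used all 36 mice, with the same groups in males. TPM are shares of a fixed sum of 1000000 per mouse, and the depth of each library is unknown from these values. The livers were sequenced whole, so fewer cells of a type and less RNA per cell cannot be told apart. Nothing in the labels says whether mice of a group shared a litter or a cage.

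*Gulo* itself, the targeted gene, was still transcribed in the *Gulo*-/- livers, at 31.2, 35.8 and 40.4 TPM in FGL05 and 16.4, 30.2 and 32.8 TPM in FGL01, and its level did not pass the test between the doses (adjusted p = 0.16). The Y-linked genes reached 0.875 TPM at most in the 6 females. The 12 hepatocyte markers summed to 99095 to 104531 TPM in FGL01 and 102854 to 110245 TPM in FGL05, with *Alb*, which encodes serum albumin, at 44164 to 62364 TPM over the 6 mice. The number of genes above 0 was 19328 to 20093 per mouse. The Pearson correlation of log2(TPM + 1) between mice, over genes, was 0.986 to 0.991 within FGL05, 0.983 to 0.989 within FGL01 and 0.964 to 0.986 between the groups. The 2 highest values between the groups, 0.9863 and 0.9858, were those of FGL01-2724 with FGL05-2894 and FGL05-2895.

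As background, ascorbate keeps the iron of a large family of dioxygenases in its reduced state. These enzymes hydroxylate collagen, the hypoxia-inducible factors and methylated DNA and histones. In the rodent liver the transcripts considered here belong to programs with known controls. Major urinary proteins (Mup) are small secreted lipocalins that carry pheromones into urine, and their genes form a cluster of very similar copies that growth hormone and sex hormones regulate. Acute phase proteins are secreted by hepatocytes when interleukin 6 activates the transcription factor STAT3. Many cytochrome P450s, transferases and transporters of the hepatocyte process steroids and foreign compounds, and part of them differ between the sexes of the mouse.

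Of the 18922 genes, 259 were called higher in FGL05 than in FGL01 and 344 lower, with an adjusted p under 0.05 (limma on log2(TPM + 1) over the 18 females, Benjamini-Hochberg) and a ratio of mean TPM above 2 in either direction. These are 1.37% and 1.82% of the genes tested. On the adjusted p alone, 708 genes (3.74%) were higher and 1559 (8.24%) lower, and these shares are the background for the gene lists below, whose members are counted on the adjusted p alone. In 568 of the 603 called genes the 3 mice of one group all lay above the 3 of the other, against 26.8% of all genes tested. Of the 259 higher calls, 177 averaged 5 TPM or more over the 3 FGL05 mice. Of the 344 lower calls, 97 averaged this much over the 3 FGL01 mice. Median-ratio scaling, which takes the typical gene as unchanged, turned the balance. The 603 calls, of which 43.0% were higher, became 330 higher and 224 lower (59.6% higher), and the counts on the adjusted p alone, of which 31.2% were higher, became 1290 higher and 743 lower (63.5% higher). It moved the median log2 fold change of genes of at least 5 TPM from -0.08 to 0.03. When the spread was estimated from the 6 mice alone, 17 genes were called, 14 higher and 3 lower, although 3783 genes had an unadjusted p under 0.05. The count was 277 without FGL05-2896, 398 without FGL01-2722 and 945 without FGL01-2724, and 437 to 632 without any of the other 3 mice.

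**Figure D1:**
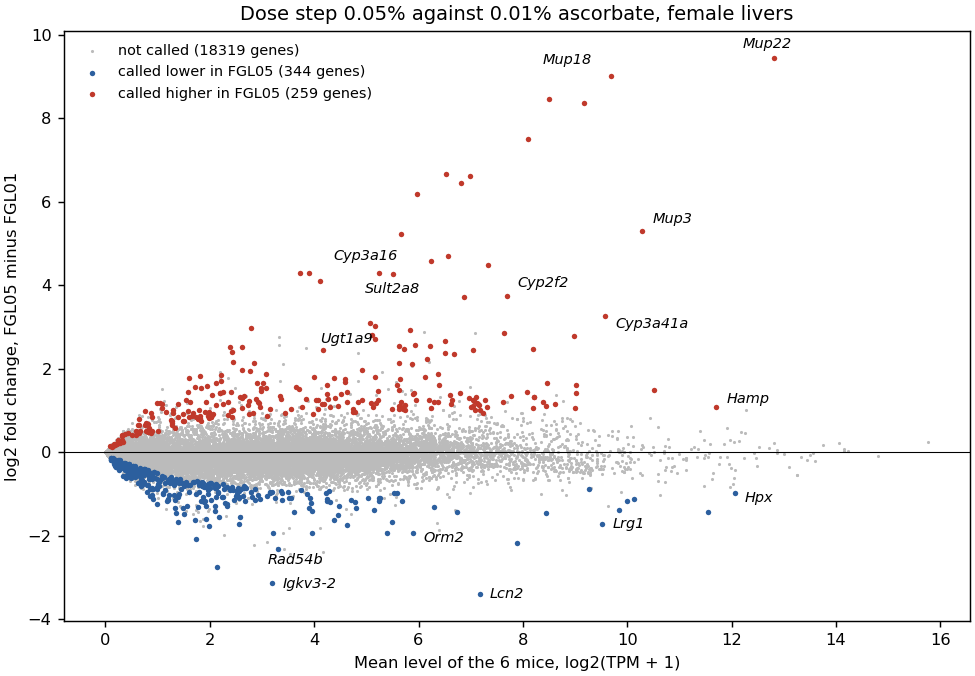
Each point is 1 of the 18922 genes, placed by its mean level over the 6 mice (horizontal axis, log2(TPM + 1)) and its log2 fold change FGL05 minus FGL01 (vertical axis), with the 259 genes called higher in red and the 344 called lower in blue. Mup transcripts hold the top, with *Mup22* at 9.44, and *Lcn2* is the lowest point at -3.39.

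The 3 mice of FGL01 were not alike in these genes. In 174 of the 259 genes called higher (67.2%) and in 213 of the 344 called lower (61.9%), FGL01-2724 was the FGL01 mouse nearest to FGL05, whereas FGL01-2722 was nearest in 17 and 75. Within FGL05, mouse FGL05-2896 was the one nearest to FGL01 in 30 of the genes called higher and in 59 of those called lower. These are descriptions of the called genes and carry no test.

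Mup transcripts showed the largest rises of the dose step, and 11 of them led all genes tested. Of the 22 listed Mup genes 18 passed the filter, 17 of them were higher in FGL05 on the adjusted p and none was lower (0 at an unadjusted p under 0.05, limma), with a median log2 fold change of 5.74 over the 18 beside -0.06 over all genes tested. The 22 genes together took 1.20%, 2.10% and 3.24% of all TPM in the 3 FGL05 livers and 0.00205%, 0.0121% and 0.0326% in those of FGL01 (exact permutation test of the means, two-sided, p = 0.1, the smallest that 3 against 3 allows). *Mup22*, the most abundant, had 7921, 13990.0 and 21111 TPM in FGL05 and 4.26, 14.6 and 83.7 TPM in FGL01 (log2 fold change 9.44 ± 0.68 (SE), adjusted p = 2.09e-06). The lowest FGL05 liver lay far above the highest FGL01 liver, FGL01-2724. *Mup3* was more even among the FGL05 livers, with 2454, 2538 and 2150.4 TPM in FGL05 and 10.96, 91.3 and 196 TPM in FGL01 (log2 fold change 5.30 ± 0.65 (SE), adjusted p = 0.000379). *Mup18* was listed at 0 in FGL01-2722 and had 779.9, 1594 and 2542 TPM in FGL05 and 0, 1.73 and 7.54 TPM in FGL01 (log2 fold change 9.01 ± 0.59 (SE), adjusted p = 9.81e-07). In the remaining members FGL05-2894 was mostly the lowest and FGL05-2896 the highest of the group, as in *Mup19* with 134, 713 and 2597 TPM against 0, 0.746 and 3.08 TPM and *Mup15* with 7.63, 169.9 and 493 TPM against 0, 0 and 0.0945 TPM. *Mup16* (8.46, adjusted p = 2.09e-06), *Mup11* (7.50, adjusted p = 2.39e-06), *Mup14* (6.66, adjusted p = 1.86e-05), *Mup17* (6.62, adjusted p = 0.00105), *Mup10* (6.18, adjusted p = 9.81e-07), *Mup9* (5.23, adjusted p = 0.000825) and *Mup7* (4.30, adjusted p = 3.1e-06) rose with them on the log2 scale. *Mup12* was the member that did not pass, at 0.175, 0.534 and 1.68 TPM in FGL05 and 0, 0.12 and 0 TPM in FGL01 (adjusted p = 0.317). The 17 members past the test were 16 or 17 when 1 mouse was left out. In FGL40 the share of the 22 genes was 2.75% to 4.03% and in FGL00 it was 0.0453% to 0.0830%.

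**Figure D2:**
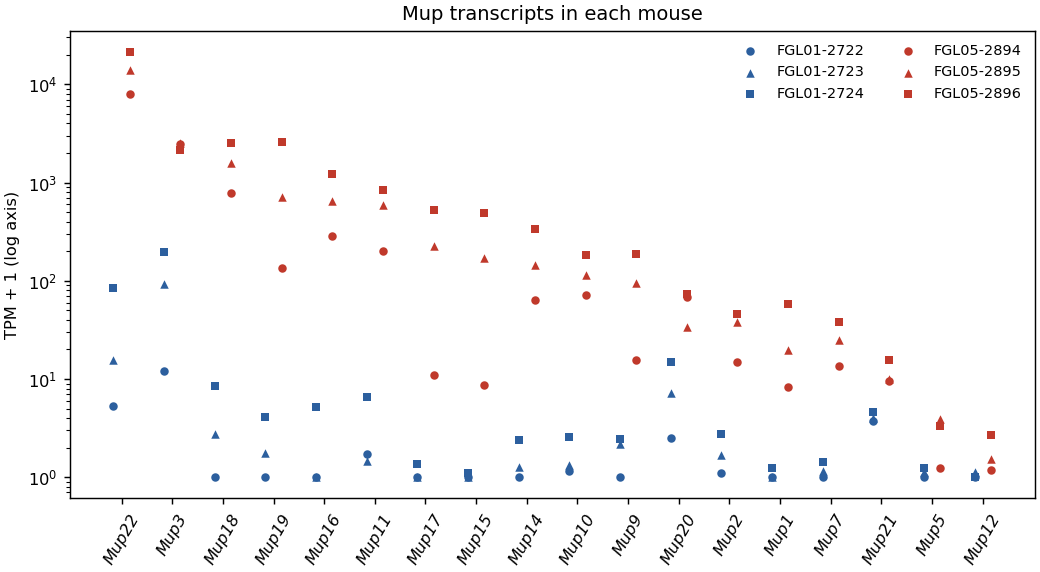
TPM + 1 (log axis) of the 18 Mup transcripts tested, ordered by their mean in FGL05, with 1 symbol per mouse, FGL01 in blue and FGL05 in red. The FGL05 mice lie above the FGL01 mice in each of the 18, and FGL01-2724 is the highest FGL01 mouse in 17 of them.

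The copies are so alike that the share of reads given to each is uncertain. In the GENCODE M21 transcripts, 24.3% (*Mup6*) to 100% (*Mup15*, *Mup19* and *Mup22*) of the 31-base words of a Mup gene also occur in another gene, with a median of 85.9% over 22 genes and 30.1% for *Mup3*. The promoters are alike as well, and 3 are shown because their genes rose together: *Mup18* (chr4:61674045-61674344, minus strand), *Mup10* (chr4:60582106-60582405, minus strand) and *Mup3* (chr4:62087268-62087567, minus strand), each with 250 bases before the start and 50 after it, from RefSeq on GRCm38.p6. Capitals mark the run of 20 bases, holding a TATA box, that all 3 share.
Mup18: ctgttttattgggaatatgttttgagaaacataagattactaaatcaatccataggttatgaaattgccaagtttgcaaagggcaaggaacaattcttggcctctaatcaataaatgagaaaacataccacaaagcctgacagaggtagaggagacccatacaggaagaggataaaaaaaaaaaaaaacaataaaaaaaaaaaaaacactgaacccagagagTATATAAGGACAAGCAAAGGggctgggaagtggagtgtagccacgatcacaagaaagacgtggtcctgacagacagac
Mup10: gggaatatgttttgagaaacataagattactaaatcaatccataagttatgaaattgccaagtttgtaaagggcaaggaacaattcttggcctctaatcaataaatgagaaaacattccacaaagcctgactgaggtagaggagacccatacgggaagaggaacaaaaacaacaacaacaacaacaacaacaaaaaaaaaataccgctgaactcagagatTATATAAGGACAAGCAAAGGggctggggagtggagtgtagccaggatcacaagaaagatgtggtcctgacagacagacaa
Mup3: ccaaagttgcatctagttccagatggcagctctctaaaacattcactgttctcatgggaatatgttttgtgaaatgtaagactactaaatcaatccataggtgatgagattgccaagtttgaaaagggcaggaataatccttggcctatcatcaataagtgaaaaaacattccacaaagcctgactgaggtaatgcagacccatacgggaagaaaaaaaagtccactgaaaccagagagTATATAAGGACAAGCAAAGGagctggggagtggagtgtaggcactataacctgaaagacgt
The reference table held a promoter for 12 of the 17 Mup genes called higher. The longest run common to these 12 was 13 bases long, and it occurred in 12 of the 32851 promoters of the table, none of them of a gene outside the Mup family. None of the 14 Mup promoters found held the STAT motif TTCNNNGAA in this window on either strand, against 8.3% of all promoters.

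Enzymes whose transcripts differ between the sexes in mouse liver were also among the rises. Of 34 female-biased transcripts 13 were higher in FGL05 and 1 lower, with a median log2 fold change of 0.68, and of 22 male-biased transcripts 6 were higher and 2 lower (7 and 1 after median-ratio scaling), with a median of 0.61. The female-predominant P450s of the Cyp3a cluster, which hydroxylate steroids and drugs, rose furthest. *Cyp3a16* had 20.97, 296 and 233 TPM in FGL05 and 0.909, 5.38 and 5.93 TPM in FGL01 (log2 fold change 4.71 ± 0.80 (SE), adjusted p = 0.00265) and *Cyp3a44* had 66.2, 339 and 527 TPM in FGL05 and 4.3, 12.6 and 14.0 TPM in FGL01 (log2 fold change 4.48 ± 0.62 (SE), adjusted p = 0.000887). *Cyp3a41a* had 297, 1852 and 2029.9 TPM in FGL05 and 50.2, 201 and 121 TPM in FGL01 (log2 fold change 3.27 ± 0.58 (SE), adjusted p = 0.00389). Its near copy *Cyp3a41b* had 3.16, 277 and 159 TPM against 0.188, 2.55 and 2.19 TPM (log2 fold change 4.58 ± 1.15 (SE), adjusted p = 0.0189), and 99.9% of the 31-base words of *Cyp3a41a* occur in another gene. In all 4 of these transcripts FGL05-2894 was the lowest mouse of its group, between the FGL01 mice and the other FGL05 mice. *Cyp2a4*, a testosterone hydroxylase, had 178, 479 and 333 TPM in FGL05 and 7.89, 80.7 and 105 TPM in FGL01 (log2 fold change 2.85 ± 0.67 (SE), adjusted p = 0.0137). *Cyp2c40* (1.32, adjusted p = 0.0119), which oxidises arachidonic acid, and its relative *Cyp2c69* (1.42, adjusted p = 0.0161) rose by less. Among male-biased transcripts *Ugt2b1*, a glucuronosyltransferase, had 108, 100.1 and 165 TPM against 27.8, 38.0 and 57.1 TPM (log2 fold change 1.61 ± 0.24 (SE), adjusted p = 0.00142). *Keg1*, an acyltransferase-like gene, and *Gstp2*, a glutathione transferase, were also higher, at 1.39 and 1.03. *Cyp2d9*, a steroid hydroxylase of male liver, went the other way, with 37.1, 9.91 and 18.9 TPM in FGL05 and 92.8, 53.8 and 49.8 TPM in FGL01 (log2 fold change -1.66 ± 0.42 (SE), adjusted p = 0.019). The count of female-biased members higher was 7 without FGL05-2896, and that of male-biased members was 2 without FGL05-2896, 3 without FGL01-2723 and 9 without FGL05-2895. With 1 mouse left out at a time, *Cyp3a16*, *Cyp3a44*, *Cyp3a41a* and *Ugt2b1* kept an adjusted p under 0.05 in all 6 fits, and *Cyp3a41b*, *Cyp2a4*, *Cyp2c40*, *Cyp2c69*, *Keg1*, *Gstp2* and *Cyp2d9* did so in 1 to 5 of 6 (highest adjusted p 0.184).

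Of 17 genes of the growth hormone and STAT5 axis, 2 were higher and 2 lower. *Ghr*, the growth hormone receptor, had 252, 225 and 239.9 TPM against 142, 199.8 and 192 TPM (log2 fold change 0.44 ± 0.11 (SE), adjusted p = 0.0202), and *Onecut1*, a hepatocyte transcription factor, had 13.2, 11.7 and 15.9 TPM against 5.15, 4.51 and 4.44 TPM (log2 fold change 1.35 ± 0.15 (SE), adjusted p = 0.000206). *Cux2*, a repressor that is specific to female liver, had 19.1, 36.7 and 16.8 TPM against 59.5, 56.6 and 36.6 TPM (log2 fold change -1.10 ± 0.28 (SE), adjusted p = 0.0195), with overlap between the groups. *Igfbp3*, an insulin-like growth factor binding protein, had 22.2, 19.6 and 16.3 TPM against 39.9, 38.0 and 26.2 TPM (log2 fold change -0.80 ± 0.20 (SE), adjusted p = 0.0202). With median-ratio scaling 6 members were higher and 2 lower, and when 1 mouse was left out 1 to 3 were higher and 0 to 2 lower. When each mouse was left out in turn, *Onecut1* kept an adjusted p under 0.05 in all 6 fits, and *Ghr*, *Cux2* and *Igfbp3* did so in 2 to 3 of 6 (highest adjusted p 0.103).

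Many xenobiotic and conjugating enzymes rose. Of 45 P450 and flavin monooxygenase genes 15 were higher and 2 lower, and of 47 glucuronosyl-, sulfo- and glutathione transferases 20 were higher and none lower (1 lower at an unadjusted p under 0.05), against 3.74% of all genes that were higher. *Cyp2f2*, a P450 of periportal hepatocytes, had 374, 320.3 and 447 TPM in FGL05 and 15.8, 22.1 and 56.3 TPM in FGL01 (log2 fold change 3.75 ± 0.37 (SE), adjusted p = 6.72e-05). *Cyp2c29*, an abundant drug-metabolising P450, had 1916, 849 and 3949 TPM against 459.7, 738 and 832 TPM (log2 fold change 1.50 ± 0.41 (SE), adjusted p = 0.0281), and FGL05-2895 lay just above the highest FGL01 mouse. *Cyp1a2*, which oxidises aromatic amines, had 350.0, 261 and 643 TPM against 69.9, 191 and 269 TPM and its groups overlapped (log2 fold change 1.34 ± 0.39 (SE), adjusted p = 0.0377). *Por*, the reductase that supplies electrons to these P450s, was lower, at 333, 296 and 267 TPM against 702, 523 and 468 TPM (log2 fold change -0.90 ± 0.14 (SE), adjusted p = 0.0016). Among the transferases, *Ugt1a9*, 1 of 7 transcripts the study also assayed by RT-PCR, a glucuronosyltransferase, had 69.8, 123 and 65.8 TPM in FGL05 and 5.4, 20.6 and 24.0 TPM in FGL01 (log2 fold change 2.47 ± 0.39 (SE), adjusted p = 0.00179). The Ugt1a genes share their last exons, so reads from these exons can be split between them. *Ugt2b5* (1.15, adjusted p = 0.0126) and *Ugt2b36* (0.78, adjusted p = 0.013), which glucuronidate steroids and drugs, *Sult1a1* (0.60, adjusted p = 0.00647), a phenol sulfotransferase, and *Gstt1* (0.76, adjusted p = 0.00728), a glutathione transferase, were higher on the log2 scale. Without FGL05-2896 the counts of higher members were 7 of 45 and 10 of 47, and without FGL01-2722 they were 8 and 14. The P450 count was 20 without FGL05-2895. In the 6 fits that each left out 1 mouse, *Cyp2f2*, *Por*, *Ugt1a9*, *Sult1a1* and *Gstt1* kept an adjusted p under 0.05 in all 6 fits, and *Cyp2c29*, *Cyp1a2*, *Ugt2b5* and *Ugt2b36* did so in 2 to 5 of 6 (highest adjusted p 0.18).

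Part of the membrane carriers and of the enzymes of bile acids, steroids and retinoids rose as well. Of 26 transporters 10 were higher and 2 lower, of 18 bile acid genes 7 and 1 (8 and 0 after median-ratio scaling), of 18 steroid-converting enzymes 8 and 1, and of 21 retinoid genes 8 and none (2 lower at an unadjusted p under 0.05). *Slco1b2*, an organic anion uptake carrier, had 422, 445 and 505 TPM in FGL05 and 129.6, 200.4 and 298 TPM in FGL01 (log2 fold change 1.20 ± 0.21 (SE), adjusted p = 0.00313), and *Abcb11*, the bile salt export pump, had 174, 157 and 236 TPM against 48.6, 94.3 and 118 TPM (log2 fold change 1.18 ± 0.24 (SE), adjusted p = 0.0065). *Slc10a1*, the sodium-dependent bile salt uptake carrier, was higher by 0.38 on the log2 scale. *Slc13a2*, a dicarboxylate carrier from the RT-PCR set, had 2.1, 0.906 and 2.74 TPM against 0.187, 0.411 and 0.122 TPM (log2 fold change 1.18 ± 0.22 (SE), adjusted p = 0.00472). *Hsd3b7* (0.67, adjusted p = 0.00867) and *Cyp27a1* (0.52, adjusted p = 0.0335), enzymes of bile acid synthesis, and *Cyp2c70* (1.45, adjusted p = 0.0339), which forms muricholic acids, were higher. Among steroid enzymes, the hydroxysteroid dehydrogenase *Akr1c6* had 675, 537 and 1129 TPM against 155, 232 and 395 TPM (log2 fold change 1.61 ± 0.30 (SE), adjusted p = 0.00452), its relative *Akr1c14* had 205, 129 and 249 TPM against 51.8, 76.8 and 104 TPM (log2 fold change 1.32 ± 0.27 (SE), adjusted p = 0.00695) and *Hsd11b1*, which regenerates corticosterone, rose by 0.64. *Hsd17b13*, a lipid droplet enzyme, was lower, at 339, 433 and 225 TPM against 582, 474 and 466 TPM (log2 fold change -0.65 ± 0.17 (SE), adjusted p = 0.0201). For retinoids, *Aldh1a1*, a retinaldehyde dehydrogenase, had 530.1, 411 and 641 TPM in FGL05 and 84.6, 199 and 254 TPM in FGL01 (log2 fold change 1.67 ± 0.31 (SE), adjusted p = 0.00438), with *Adh1* (0.83, adjusted p = 0.0174), *Rdh7* (0.33, adjusted p = 0.0175) and *Dhrs3* (0.75, adjusted p = 0.00735), which interconvert retinol and retinaldehyde, also higher. Without FGL05-2896 the higher counts were 4 of 26, 3 of 18, 6 of 18 and 2 of 21. The bile acid count was also 3 without FGL05-2894 or FGL01-2722, the transporter count 5 without FGL01-2723 and the retinoid count 5 without FGL01-2722. With 1 mouse left out at a time, *Slco1b2*, *Abcb11*, *Slc13a2*, *Hsd3b7*, *Akr1c6*, *Akr1c14*, *Hsd11b1*, *Aldh1a1* and *Dhrs3* kept an adjusted p under 0.05 in all 6 fits, and *Slc10a1*, *Cyp27a1*, *Cyp2c70*, *Hsd17b13*, *Adh1* and *Rdh7* did so in 2 to 4 of 6 (highest adjusted p 0.161).

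Many lipid synthesis transcripts were higher in FGL05. Of 27 genes of fatty acid and triglyceride synthesis 12 were higher and none lower (19 and 1 at an unadjusted p under 0.05), with a median log2 fold change of 0.73. *Mlxipl*, the transcription factor that answers to glucose and drives this pathway, had 174, 183 and 233 TPM in FGL05 and 79.9, 84.0 and 102 TPM in FGL01 (log2 fold change 1.14 ± 0.12 (SE), adjusted p = 0.000118), and the groups did not overlap. *Dgat2*, which makes triglycerides, had 343, 319 and 375 TPM against 164, 215 and 259 TPM (log2 fold change 0.72 ± 0.14 (SE), adjusted p = 0.00578). The fatty acid desaturases *Fads1* (0.82, adjusted p = 0.00516) and *Fads2* (1.09, adjusted p = 0.0124) rose, and other members past the test were *Me1*, *Pklr*, *Fasn*, *Gpam*, *Mid1ip1*, *Elovl6* and *Aacs*. *Fasn*, fatty acid synthase, had 84.4, 40.1 and 109.9 TPM against 6.41, 23.1 and 24.6 TPM (log2 fold change 2.14 ± 0.45 (SE), adjusted p = 0.0083). The count was 8 without FGL05-2896 or without FGL01-2722. *Acacb*, an acetyl-CoA carboxylase from the RT-PCR set, had 9.11, 15.2 and 9.38 TPM against 3.71, 7.44 and 8.71 TPM and did not pass (log2 fold change 0.71 ± 0.27 (SE), adjusted p = 0.0957). Cholesterol synthesis showed 5 of 25 members higher and none lower (19 and 0 at an unadjusted p under 0.05), and 24 of the 25 had a log2 fold change above 0, with a median of 1.09. *Nsdhl* had 22.8, 9.55 and 40.8 TPM in FGL05 and 3.01, 6.83 and 6.78 TPM in FGL01 (log2 fold change 1.81 ± 0.39 (SE), adjusted p = 0.00908), and *Sc5d* (0.94, adjusted p = 0.01), *Tm7sf2* (1.36, adjusted p = 0.0209) and *Acat2* (0.92, adjusted p = 0.042), further enzymes of the pathway, passed together with *Mvd*. The count was 10 after median-ratio scaling and moved with single mice. FGL05-2895 was the lowest FGL05 mouse in 25 of 25 members, the 25 genes summed to 2054, 1004 and 2453 TPM in FGL05 and 590.0, 1153 and 992 TPM in FGL01, and without FGL05-2895 the members higher were 20 of 25. They were 2 without FGL05-2894 or FGL05-2896 and 3 without FGL01-2722. Of 35 genes of fatty acid oxidation, 1 was higher and 2 lower, and 11 were lower without FGL05-2895 and none without FGL05-2896. *Cyp4a14* and *Cyp4a32*, fatty acid omega-hydroxylases and PPAR-alpha targets, fell, with *Cyp4a14* at 1547, 2949.7 and 819 TPM in FGL05 and 3556, 4477 and 4685 TPM in FGL01 (log2 fold change -1.44 ± 0.34 (SE), adjusted p = 0.0148) and *Cyp4a32* at 28.9, 19.96 and 21.4 TPM against 54.2, 55.3 and 42.7 TPM. *Abcd2*, a peroxisomal carrier of fatty acids, was higher (0.74). When each mouse was left out in turn, *Mlxipl*, *Dgat2*, *Fads1*, *Nsdhl*, *Sc5d* and *Abcd2* kept an adjusted p under 0.05 in all 6 fits, and *Fads2*, *Tm7sf2*, *Acat2*, *Cyp4a14* and *Cyp4a32* did so in 2 to 5 of 6 (highest adjusted p 0.194).

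**Figure D3:**
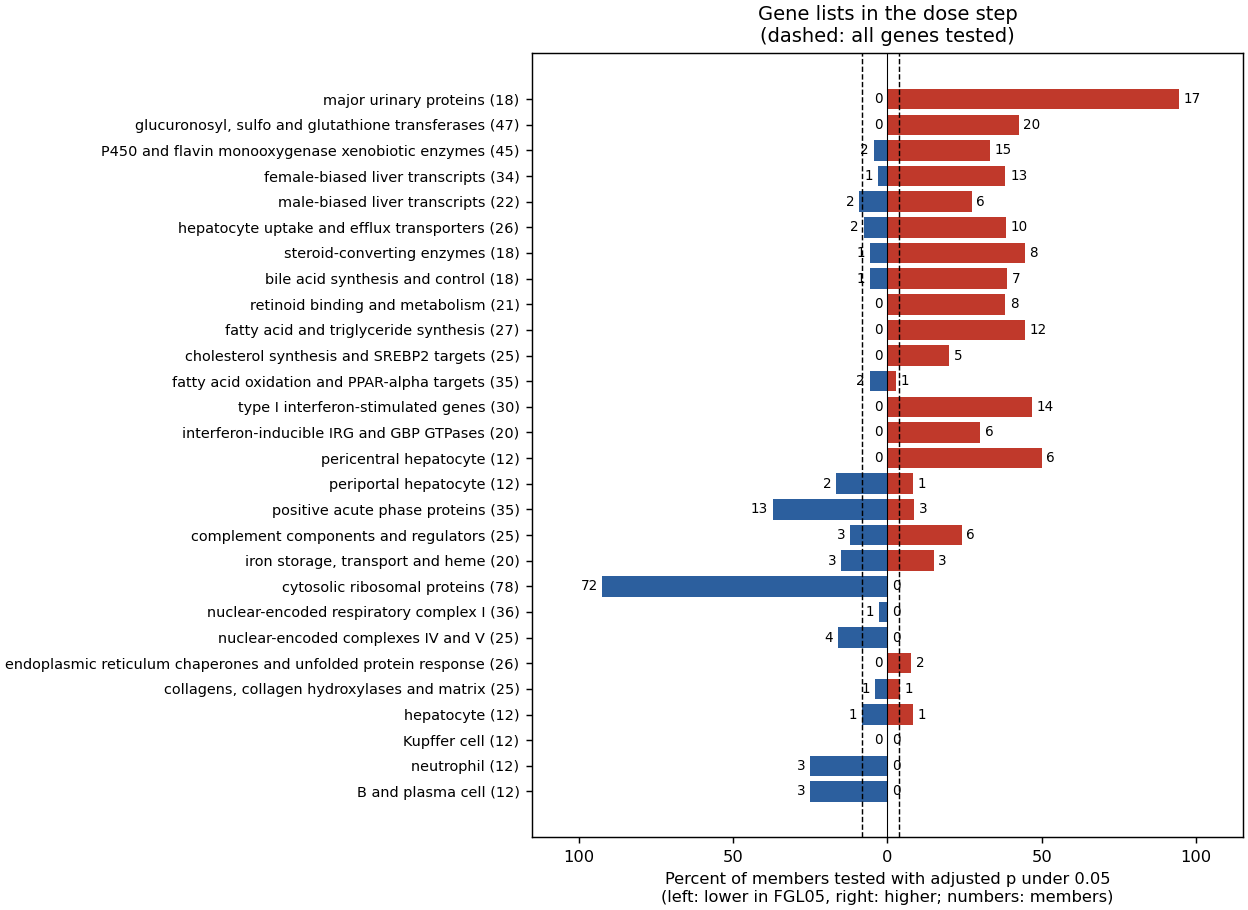
Share of the tested members of 28 gene lists that passed an adjusted p of 0.05, higher in FGL05 to the right and lower to the left, with the number of members beside each bar and the shares of all genes tested (3.74% and 8.24%) as dashed lines. The Mup genes (17 of 18 higher) and the ribosomal protein genes (72 of 78 lower on deposited TPM, 11 after median-ratio scaling) mark the ends.

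Acute phase transcripts were among those that fell. Of 35 members 13 were lower in FGL05 and 3 higher, with a median log2 fold change of -0.61, and the 13 lower members, against 8.24% of all genes, were 10 after median-ratio scaling, with *Stat3* no longer among them. When 1 mouse was left out, 10 to 17 members were lower and 1 to 3 higher. *Lcn2*, a lipocalin that withholds iron from bacteria, had 20.3, 14.6 and 14.7 TPM in FGL05 and 387, 381 and 39.7 TPM in FGL01 (log2 fold change -3.39 ± 0.71 (SE), adjusted p = 0.00803), so that FGL01-2724 lay far below the other 2 FGL01 mice. *Lrg1*, a secreted leucine-rich glycoprotein, had 342, 405 and 239 TPM in FGL05 and 1561, 1209 and 615 TPM in FGL01 (log2 fold change -1.71 ± 0.28 (SE), adjusted p = 0.00211). *Hpx*, the heme-binding hemopexin, had 2976, 2544 and 2886 TPM against 7295, 6047 and 3783 TPM (log2 fold change -0.98 ± 0.16 (SE), adjusted p = 0.00245), *Hp*, the hemoglobin-binding haptoglobin, had 2967, 3490.3 and 2710.4 TPM against 6156, 5652 and 3967 TPM (log2 fold change -0.77 ± 0.15 (SE), adjusted p = 0.00653) and *Itih4* had 1111, 1211 and 1190.1 TPM against 2253, 1996 and 1491 TPM (log2 fold change -0.69 ± 0.12 (SE), adjusted p = 0.0036). *Orm2*, an orosomucoid, had 17.7, 34.2 and 14.3 TPM against 68.3, 172 and 46.4 TPM (log2 fold change -1.94 ± 0.48 (SE), adjusted p = 0.0189). *Saa1*, *Apcs*, *Fgl1*, *Itih3*, *Lbp*, *Stat3* and *C4b* were the other members lower. *Stat3*, the transcription factor of the response, had 68.0, 57.9 and 57.1 TPM against 138, 89.4 and 70.5 TPM (log2 fold change -0.64 ± 0.17 (SE), adjusted p = 0.0259), and *C4b*, a complement component, had 441, 467 and 399.5 TPM against 857, 651 and 530.0 TPM (log2 fold change -0.61 ± 0.13 (SE), adjusted p = 0.00846). *Serpina3n*, a protease inhibitor of the RT-PCR set, had 299.9, 281 and 229 TPM against 1113, 505 and 283 TPM and did not pass (log2 fold change -1.01 ± 0.34 (SE), adjusted p = 0.0612). Of the 7 transcripts assayed by RT-PCR, which the study chose on the mice of this series and which are not independent evidence of a direction, 2 were higher and 3 lower. The 35 members together took 3.08%, 2.59% and 3.25% of all TPM in FGL05 and 5.62%, 4.04% and 2.79% in FGL01, and the groups overlapped (exact permutation test, p = 0.3). FGL01-2724 had the lowest FGL01 value in 29 of the 35 members. *Crp*, *Steap4* and *Hamp* were the 3 members that rose. *Crp*, which is not a strong acute phase protein in the mouse, had 329.7, 319.9 and 549 TPM against 145, 183 and 234 TPM. In the 6 fits that each left out 1 mouse, *Lcn2*, *Lrg1*, *Hpx*, *Hp*, *Itih4* and *C4b* kept an adjusted p under 0.05 in all 6 fits, and *Orm2* and *Stat3* did so in 3 of 6 (highest adjusted p 0.1).

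*Hamp*, which encodes the iron hormone hepcidin, had 6359.7, 2797 and 4572 TPM in FGL05 and 2296, 2059 and 1818 TPM in FGL01 (log2 fold change 1.08 ± 0.27 (SE), adjusted p = 0.0197). In FGL00 it had 135, 272 and 232 TPM, below all FGL01 livers (adjusted p = 3.07e-05 for FGL01 against FGL00). Of 20 iron and heme genes 3 were higher and 3 lower, and after median-ratio scaling 4 were higher and 1 lower, with *Trf* and *Hmox1* short of the test. *Ftl1*, ferritin light chain, had 5484, 5835 and 5525 TPM against 3282, 4128 and 4994 TPM (log2 fold change 0.46 ± 0.13 (SE), adjusted p = 0.0334) and *Alas1*, the rate-limiting enzyme of heme synthesis, had 328, 546 and 553 TPM against 222, 174 and 256 TPM (log2 fold change 1.10 ± 0.28 (SE), adjusted p = 0.0201). *Trf*, transferrin, had 10989, 11501 and 11921 TPM against 12873, 13845 and 12995 TPM (log2 fold change -0.21 ± 0.06 (SE), adjusted p = 0.0468), and *Hmox1*, the heme-degrading oxygenase, had 32.8, 29.5 and 27.4 TPM against 101, 48.3 and 42.3 TPM (log2 fold change -0.97 ± 0.27 (SE), adjusted p = 0.0324). The promoters of *Itih4*, which fell, and *Hamp*, which rose, both hold the letters TTCNNNGAA to which STAT proteins bind, and are shown to place that motif in capitals in the 150 bases before the start (*Itih4* at chr14:30886326-30886475, plus strand, *Hamp* at chr7:30944030-30944179, minus strand).
Itih4: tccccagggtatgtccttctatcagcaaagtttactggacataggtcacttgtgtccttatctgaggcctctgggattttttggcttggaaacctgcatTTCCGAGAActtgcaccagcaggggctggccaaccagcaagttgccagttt
Hamp: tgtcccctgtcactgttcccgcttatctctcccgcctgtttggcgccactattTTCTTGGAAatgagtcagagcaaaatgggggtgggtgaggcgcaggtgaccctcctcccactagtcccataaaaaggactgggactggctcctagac
These letters occurred in 8 of the 30 promoters found for 27 acute phase genes (26.7%, against 8.3% of all promoters): in 2 of the 3 members that rose, in 2 of the 9 that fell and had a promoter, and in 4 of the 15 that did not pass. With 1 mouse left out at a time, *Hamp* kept an adjusted p under 0.05 in 3 of 6 fits, *Alas1* and *Hmox1* in 2 and *Ftl1* and *Trf* in 1 (highest adjusted p 0.154), and the iron and heme members past it were 0 higher and 1 lower without FGL05-2896 and 5 higher and 3 lower without FGL01-2724.

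Complement genes changed in both directions, with 6 of 25 members higher and 3 lower. Without FGL05-2896 the counts were 2 and 3, and without FGL01-2724 they were 5 and 6. *C3*, the central component, had 3225, 3868 and 2979.7 TPM against 5888, 5041 and 4395 TPM (log2 fold change -0.60 ± 0.11 (SE), adjusted p = 0.00486), while *Mbl2*, a lectin that starts the cascade, had 505, 541 and 574 TPM against 255, 364 and 449 TPM (log2 fold change 0.64 ± 0.15 (SE), adjusted p = 0.0125). Of 19 coagulation factors 3 were higher and 1 lower. *Klkb1*, prekallikrein, had 89.1, 82.0 and 97.8 TPM against 56.3, 58.9 and 64.2 TPM (log2 fold change 0.57 ± 0.09 (SE), adjusted p = 0.00162), *Serpind1*, heparin cofactor II, and *F9*, factor IX, rose by 0.44 and 0.23 on the log2 scale, and *Pros1*, protein S, had 21.4, 21.5 and 23.2 TPM against 46.0, 36.9 and 25.4 TPM (log2 fold change -0.65 ± 0.15 (SE), adjusted p = 0.0132). After median-ratio scaling 4 coagulation factors were higher and *Pros1* was no longer past the test. Of 14 negative acute phase genes and Serpina1 paralogs, 4 were higher and 1 lower (6 and 0 after median-ratio scaling). *Gc*, the vitamin D binding protein, had 4665, 4629.6 and 4489.6 TPM against 3840.1, 3831 and 3911 TPM (log2 fold change 0.25 ± 0.05 (SE), adjusted p = 0.00681), and *Serpina1c* had 5740.2, 4404 and 6273 TPM against 3887, 3727 and 3949.5 TPM. The Serpina1 genes are near copies of one another, so their shares are uncertain. Of 20 genes of interleukin 6 and STAT3 signaling 2 were higher and 1 lower (2 and 0 after median-ratio scaling). *Lifr*, a receptor subunit for leukemia inhibitory factor, had 65.9, 89.1 and 173 TPM in FGL05 and 21.1, 29.1 and 35.6 TPM in FGL01 (log2 fold change 1.81 ± 0.28 (SE), adjusted p = 0.00158), and *Fos*, an immediate early transcription factor, had 36.5, 38.8 and 109 TPM against 13.4, 5.54 and 5.14 TPM (log2 fold change 2.72 ± 0.84 (SE), adjusted p = 0.048). With 1 mouse left out at a time, *C3*, *Klkb1*, *Pros1*, *Gc* and *Lifr* kept an adjusted p under 0.05 in all 6 fits, and *Mbl2*, *Serpind1*, *F9*, *Serpina1c* and *Fos* did so in 0 to 5 of 6 (highest adjusted p 0.192).

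Many interferon-stimulated transcripts were higher in FGL05. Of 30 such genes 14 were higher and none lower (20 and 0 at an unadjusted p under 0.05), 29 had a log2 fold change above 0 and the median was 0.63. *Ifi27* had 102, 125 and 98.3 TPM in FGL05 and 33.1, 46.4 and 62.9 TPM in FGL01 (log2 fold change 1.22 ± 0.22 (SE), adjusted p = 0.00409). *Irf9* (0.88, adjusted p = 0.00224), a subunit of the transcription factor that interferon activates, *Rtp4* (1.16, adjusted p = 0.000948) and *Isg15* (1.25, adjusted p = 0.00833), a ubiquitin-like modifier, were higher. Other members higher were *Ifit3*, *Usp18*, *Xaf1*, *Oasl1*, *Ifit1*, *Oasl2*, *Oas1a*, *Ifit3b* and *Ifi44*. Of 20 interferon-inducible GTPases of the IRG and GBP families, which defend against intracellular pathogens, 6 were higher and none lower (12 and 0 at an unadjusted p under 0.05), and 4 were higher without FGL05-2896. *Iigp1* had 129, 168 and 182 TPM in FGL05 and 41.7, 57.5 and 80.7 TPM in FGL01 (log2 fold change 1.43 ± 0.21 (SE), adjusted p = 0.00107), and *Gm4951* (1.08, adjusted p = 0.00792), *Irgm1* (0.79, adjusted p = 0.0107) and *Irgm2* (0.68, adjusted p = 0.0296) followed. FGL01-2722 was the lowest FGL01 mouse in 25 of the 30 interferon-stimulated genes, and without it 8 of 30 were higher. The sum of the 30 was 631, 717 and 633 TPM in FGL05 and 248, 467 and 442 TPM in FGL01.

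The interferon-stimulated response element, the site through which interferon acts on these genes, was searched as GAAA, any pair of bases and GAAA, on both strands. It was found in 12 of 23 promoters of 21 listed interferon-stimulated genes (52.2%), against 3.44% of all promoters, namely in 5 of the 10 members that rose and had a promoter and in 7 of the 11 that did not pass. The 150 bases before the start of *Isg15* (chr4:156200819-156200968, minus strand) and *Ifit1* (chr19:34640739-34640888, plus strand), from RefSeq on GRCm38.p6, show the matches in capitals, overlapping in *Isg15* and on the opposite strand in *Ifit1*.
Isg15: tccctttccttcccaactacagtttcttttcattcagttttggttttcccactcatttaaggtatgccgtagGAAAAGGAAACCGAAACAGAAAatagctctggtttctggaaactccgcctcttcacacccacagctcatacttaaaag
Ifit1: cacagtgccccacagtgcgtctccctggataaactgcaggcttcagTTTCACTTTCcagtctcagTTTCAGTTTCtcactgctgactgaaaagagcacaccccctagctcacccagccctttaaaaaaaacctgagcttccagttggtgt
Among all genes called, the element was in 6.87% of the 233 promoters of those called higher and in 2.54% of the 276 promoters of those called lower. The sterol regulatory element TCACNCCAC was in 3.43% and 1.45% of these promoters and in 1.24% of all, and the metal response element core (TGCGCNC or TGCACNC) was in 21.03% and 28.3%, against 25.7% of all. These are descriptions of letters in a window and carry no test. When each mouse was left out in turn, *Ifi27*, *Irf9*, *Rtp4*, *Iigp1* and *Gm4951* kept an adjusted p under 0.05 in all 6 fits, and *Irgm1* and *Irgm2* did so in 3 to 5 of 6 (highest adjusted p 0.112).

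Ribosomal protein transcripts fell by a small amount. On deposited TPM 72 of 78 were lower and none higher (0 higher at an unadjusted p under 0.05), with a median log2 fold change of -0.39 and with all 78 values below 0. They took 3.50%, 3.35% and 3.15% of all TPM in FGL05 and 4.96%, 4.13% and 4.10% in FGL01 (exact permutation test, p = 0.1, the smallest possible). *Rpl13a* had 1073, 1034 and 931 TPM against 1691, 1360.3 and 1397 TPM (log2 fold change -0.55 ± 0.09 (SE), adjusted p = 0.00242), and *Rps27* (-0.39, adjusted p = 0.0273), *Rps2* (-0.26, adjusted p = 0.0354) and *Rps18* (-0.46, adjusted p = 0.0137) were lower too. The count depended on the scaling, since 11 of 78 were lower after median-ratio scaling, at a median of -0.28, and 46 were lower without FGL05-2896 on deposited TPM. Many ribosomal protein genes have processed pseudogenes with which reads can be shared. Of the nuclear-encoded respiratory subunits, 1 of 36 in complex I (*Ndufa2*, -0.26), 1 of 16 in complex III (*Uqcr10*, -0.38) and 4 of 25 in complexes IV and V were lower and none was higher. These 4 were *Cox7b*, *Cox8a*, *Atp5g3* and *Atp5o*, and none of them was past the test without FGL05-2896. With median-ratio scaling none of these was lower except *Uqcr10*, and 1 member each of complex III and of complexes IV and V was higher. The 13 genes of the mitochondrial genome took 13.8 ± 0.837% of TPM in FGL05 and 14.0 ± 0.724% in FGL01 (SD, n = 3, exact permutation test, p = 0.6). Their members *mt-Nd1* (-0.34, adjusted p = 0.0296) and *mt-Nd5* (-0.43, adjusted p = 0.0116) were lower, and neither was past the test after median-ratio scaling, where 1 of the 13 was higher. In the 6 fits that each left out 1 mouse, *Rpl13a*, *Uqcr10* and *mt-Nd5* kept an adjusted p under 0.05 in all 6 fits, and *Rps27*, *Rps2*, *Rps18*, *Ndufa2* and *mt-Nd1* did so in 2 to 5 of 6 (highest adjusted p 0.135).

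Part of the genes closest to ascorbate itself passed the test. Over all genes tested 3.74% were higher and 8.24% lower, and whether the lists below differ from these shares was not tested. Of 20 genes of ascorbate synthesis, recycling and transport 3 were higher and none lower (5 and 1 at an unadjusted p under 0.05), and the same count of 3 was reached in each fit that left out 1 mouse. *Rgn*, which makes the lactone that Gulo oxidises, had 622, 477 and 978 TPM in FGL05 and 249, 350.0 and 370.0 TPM in FGL01 (log2 fold change 1.05 ± 0.20 (SE), adjusted p = 0.0054). *Ugp2*, which makes the UDP-glucose that precedes it, had 185, 186 and 207 TPM in FGL05 and 92.3, 90.1 and 102 TPM in FGL01 (log2 fold change 1.01 ± 0.12 (SE), adjusted p = 0.00034), and *Cyb5r3*, a reductase of the ascorbate radical, had 222, 154 and 217 TPM against 93.8, 127 and 134 TPM (log2 fold change 0.74 ± 0.15 (SE), adjusted p = 0.00703). Of 20 TET and JmjC dioxygenases, which use ascorbate to demethylate DNA and histones, none was higher and 2 were lower (1 and 8 at an unadjusted p under 0.05). These were *Kdm5a* with 11.3, 10.95 and 8.59 TPM against 17.5, 19.1 and 14.9 TPM (log2 fold change -0.69 ± 0.13 (SE), adjusted p = 0.00433) and *Tet3* with 5.96, 6.13 and 4.04 TPM against 7.91, 8.81 and 8.1 TPM (log2 fold change -0.56 ± 0.11 (SE), adjusted p = 0.00632). Of 19 genes of the hypoxia-inducible factor axis 2 were higher (*Epas1*, 0.54, and *Ndrg1*, 1.20) and 2 lower (*Bnip3*, -0.62, and *Pgk1*, -0.29). At an unadjusted p under 0.05 these were 3 and 5. Of 25 collagen and matrix genes 1 was higher (*Plod3*, 0.58) and 1 lower (*Plod1*, -0.39), both lysyl hydroxylases. At an unadjusted p under 0.05 these were 2 and 4. The sums of the dioxygenase, hypoxia and collagen lists were lower in FGL05 without overlap. They were 212 to 241 against 246 to 277, 1423 to 2009 against 2020 to 2031 and 1776 to 1827 against 1990 to 2362 TPM. The ascorbate list summed to 1917 to 2584 TPM against 1323 to 1737 TPM. Of single genes 26.8% did not overlap, and these sums carry no test. After median-ratio scaling *Pgk1* and *Plod1* were no longer past the test, and 1 dioxygenase gene, 2 collagen and matrix genes, 1 carnitine gene and 2 genes of tyrosine catabolism were higher. None of 8 carnitine genes and none of 9 genes of tyrosine catabolism passed (2 and 5 at an unadjusted p under 0.05), and without FGL05-2895 carnitine genes numbered 2 lower and tyrosine genes 2 higher. Without FGL05-2896 none of the hypoxia or collagen genes passed. With 1 mouse left out at a time, *Rgn*, *Ugp2*, *Cyb5r3*, *Kdm5a* and *Tet3* kept an adjusted p under 0.05 in all 6 fits, and *Epas1*, *Ndrg1*, *Bnip3*, *Pgk1*, *Plod3* and *Plod1* did so in 2 to 5 of 6 (highest adjusted p 0.15).

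Other metabolic and stress lists held few members past the test. For 22 antioxidant genes these were 3 higher and 1 lower (*Hmox1*), with *Gclc*, the rate-limiting subunit of glutathione synthesis, at 213, 189 and 221 TPM against 42.9, 90.0 and 168 TPM (log2 fold change 1.25 ± 0.34 (SE), adjusted p = 0.0281), *Prdx6*, a peroxiredoxin, at 0.32 and *Txn1*, thioredoxin, at 0.49 on the log2 scale. For 21 genes of gluconeogenesis and fasting they were 5 higher and 1 lower, with *Pygl*, liver glycogen phosphorylase, at 185, 177 and 205 TPM against 49.4, 103 and 117 TPM (log2 fold change 1.15 ± 0.22 (SE), adjusted p = 0.00553), *Ppp1r3b*, a glycogen-targeting phosphatase subunit, at 1.76, the glucagon receptor *Gcgr* at 0.36 and *Fbp1*, a gluconeogenic enzyme, at -0.47. For 23 genes of the urea cycle and amino acid catabolism they were 2 higher and 3 lower, with *Otc* at 188, 168 and 214 TPM against 105, 129 and 132 TPM (log2 fold change 0.63 ± 0.10 (SE), adjusted p = 0.00144), *Glul*, glutamine synthetase, at 0.83, *Asl* at 975, 611 and 467 TPM against 2409, 1422 and 828 TPM and *Mat1a*, the liver methionine adenosyltransferase, at -0.81. For 19 apolipoproteins they were 3 higher and 2 lower, among them *Apoc3* with 4916, 4377 and 4561 TPM against 2978, 3032 and 3210.3 TPM (log2 fold change 0.59 ± 0.09 (SE), adjusted p = 0.00162), *Apom* (0.46), *Apoa5* (-0.46) and *Apoc2* (-0.45), and after median-ratio scaling 5 were higher and none lower. Of 16 p53 targets 2 were higher, and *Gdf15*, a stress cytokine, had 44.7, 52.2 and 76.8 TPM in FGL05 and 14.1, 2.22 and 10.3 TPM in FGL01 (log2 fold change 2.81 ± 0.57 (SE), adjusted p = 0.0072), with *Trp53inp1* at 0.82. Of 27 cell cycle genes 2 were higher and 2 lower, with *Ccnd1*, cyclin D1, at 29.0, 26.2 and 51.1 TPM against 4.87, 13.9 and 13.7 TPM (log2 fold change 1.68 ± 0.36 (SE), adjusted p = 0.00833), *Rrm2* at 0.66, *Hmgb2* at -1.01 and *Mcm3* at -0.66. Of 8 metallothionein and zinc genes 1 was higher (*Slc30a10*, a manganese exporter, 0.75) and 2 lower (*Slc30a1*, a zinc exporter, -0.63, and *Mtf1*, the metal-responsive transcription factor, -0.42). Of 26 chaperone genes 2 were higher (*Xbp1*, 0.43, and *Dnajb9*, 0.70), of 16 glucocorticoid responsive genes 2 higher (*Hsd11b1* and *Dusp1*, 1.26) and 1 lower (*Lcn2*), of 21 clock genes 2 higher (*Bhlhe40*, 1.03, and *Npas2*, 0.81), and of 23 chemokines and receptors 3 lower (*Ccl6*, -0.88, *Cxcr4*, -0.74, and *Ccr1*, -0.32). Median-ratio scaling also left *Hmox1*, *Fbp1*, *Asl*, *Mat1a* and *Mtf1* short of the test, and with it 4 cell cycle genes and 4 chaperone genes were higher. When 1 mouse was left out, the members of these lists past the test ranged from 0 to 8 per direction, the 8 being gluconeogenic and fasting genes higher without FGL01-2724. When each mouse was left out in turn, *Pygl*, *Otc*, *Apoc3*, *Apom*, *Gdf15*, *Slc30a1* and *Bhlhe40* kept an adjusted p under 0.05 in all 6 fits, and *Gclc*, *Prdx6*, *Txn1*, *Ppp1r3b*, *Gcgr*, *Fbp1*, *Glul*, *Asl*, *Mat1a*, *Apoa5*, *Apoc2*, *Trp53inp1*, *Ccnd1*, *Rrm2*, *Hmgb2*, *Mcm3*, *Slc30a10*, *Mtf1*, *Xbp1*, *Dnajb9*, *Dusp1*, *Npas2*, *Ccl6*, *Cxcr4* and *Ccr1* did so in 1 to 5 of 6 (highest adjusted p 0.217).

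Among the 15 largest falls that met the rule were several genes outside these lists. *Rad54b*, a DNA recombination helicase, had 3.18, 2.56 and 1.34 TPM in FGL05 and 17.5, 16.5 and 12.3 TPM in FGL01 (log2 fold change -2.32 ± 0.32 (SE), adjusted p = 0.000825), and *Adora1*, an adenosine receptor, had 14.2, 7.86 and 9.72 TPM against 34.0, 29.3 and 30.2 TPM (log2 fold change -1.51 ± 0.16 (SE), adjusted p = 0.000137). *Hdc*, histidine decarboxylase, had 20.6, 29.2 and 5.66 TPM against 64.6, 41.3 and 85.5 TPM (log2 fold change -1.93 ± 0.48 (SE), adjusted p = 0.0178), and *Peg3*, a paternally expressed zinc finger gene, had 3.96, 8.57 and 4.19 TPM against 30.2, 17.8 and 22.2 TPM (log2 fold change -1.93 ± 0.28 (SE), adjusted p = 0.00106). *Bmper*, a regulator of bone morphogenetic proteins, had 0.721, 0.548 and 0.766 TPM against 9.48, 3.54 and 2.77 TPM (log2 fold change -1.75 ± 0.29 (SE), adjusted p = 0.00224), and *Clcf1*, a cytokine of the interleukin 6 family, had 1.62, 1.61 and 2.8 TPM against 10.3, 7.46 and 5.81 TPM (log2 fold change -1.55 ± 0.24 (SE), adjusted p = 0.00167). *Slc41a3*, a magnesium carrier, had 1.26, 2.33 and 0.929 TPM against 13.6, 8.22 and 2.83 TPM, *Niban2* had 8.89, 4.28 and 3.63 TPM against 25.9, 15.4 and 9.66 TPM and *Chchd2l*, a copy of *Chchd2*, had 2.8, 3.6 and 1.42 TPM against 22.4, 12.6 and 6.47 TPM. FGL01-2722 was the highest FGL01 mouse in 8 of these 9 genes, the exception being *Hdc*. In the 6 fits that each left out 1 mouse, *Rad54b*, *Adora1*, *Peg3*, *Bmper*, *Clcf1*, *Slc41a3* and *Chchd2l* kept an adjusted p under 0.05 in all 6 fits, and *Hdc* and *Niban2* did so in 4 to 5 of 6 (highest adjusted p 0.0777).

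Pericentral hepatocyte markers were higher in part, and part of the neutrophil, B cell and plasma cell markers were lower. Of 12 pericentral markers 6 were higher and none lower (8 and 0 at an unadjusted p under 0.05), against 3.74% of all genes that were higher (2 higher without FGL05-2896 or without FGL01-2722 and 3 without FGL01-2723), and of 12 periportal markers *Cyp2f2* was higher and *Hsd17b13* and *Sdsl* (-1.14) lower. The 12 pericentral markers summed to 8228 to 8910 TPM in FGL05 and 6988 to 8247 TPM in FGL01, and these ranges overlapped. Their sums were 10064 to 11774 TPM in FGL00 and 7485 to 8465 TPM in FGL40. Of the 12 periportal markers 10 had a log2 fold change below 0 (1 higher and 5 lower at an unadjusted p under 0.05). Of 12 hepatocyte markers *Serpina1a* was higher (0.26) and *Trf* lower, and after median-ratio scaling 3 were higher and none lower. Of 12 neutrophil markers 3 were lower (*Lcn2*, *Ngp* and *Elane*), against 8.24% of all genes, and 8 were lower at an unadjusted p under 0.05. Their sum was 25.9 to 39.5 TPM in FGL05 and 56.0 to 443 TPM in FGL01. Of this *Lcn2*, also an acute phase gene, gave 14.6 to 20.3 TPM in FGL05 and 39.7 to 387 TPM in FGL01. Without *Lcn2* the sums of the groups overlapped. *Elane*, neutrophil elastase, was listed at 0 in 2 FGL05 mice and had 0, 0 and 0.0598 TPM against 0.129, 0.24 and 0.338 TPM in all. When 1 mouse was left out, 1 to 5 neutrophil markers were lower. Of 12 B and plasma cell markers 3 were lower (11 at an unadjusted p under 0.05), all 12 had a log2 fold change below 0, and the sum was 38.5 to 65.4 TPM in FGL05 and 117, 609 and 73.2 TPM in FGL01, so that FGL01-2723 stood apart. *Cd79b*, a part of the B cell receptor, had 4.01, 1.81 and 2.18 TPM against 5.95, 11.5 and 3.75 TPM (log2 fold change -1.07 ± 0.31 (SE), adjusted p = 0.0339), and *Igkv3-2*, an immunoglobulin light chain segment among the 15 largest falls, had 0.233, 0.221 and 0 TPM against 12.8, 34.5 and 1.09 TPM (log2 fold change -3.14 ± 0.97 (SE), adjusted p = 0.048). The count of 3 was 0 without FGL05-2895, FGL05-2896, FGL01-2722 or FGL01-2723 and 9 without FGL01-2724. Whether these cells had a part in the falls of other genes was not tested. Of 12 monocyte markers 2 were lower (*S100a4* and *Itgam*), of 12 dendritic cell markers 2 (*Zbtb46* and *Siglech*), of 12 endothelial markers 1 (*Stab2*) and of 9 erythroid markers 1 (*Klf1*). After median-ratio scaling *Elane*, *Igkv3-2*, *Itgam*, *Siglech* and *Klf1* were no longer past the test. With 1 mouse left out at a time, *Sdsl*, *S100a4* and *Zbtb46* kept an adjusted p under 0.05 in all 6 fits. *Igkv3-2*, *Elane*, *Itgam* and *Siglech* did so in 1 fit, and *Serpina1a*, *Cd79b*, *Klf1*, *Ngp* and *Stab2* in 2 to 5 (limma, highest adjusted p 0.19). None of the markers of Kupffer cells, T and NK cells, stellate cells, cholangiocytes, platelets, exocrine pancreas and adipocytes passed. At an unadjusted p under 0.05 there were 10 of them, each lower, and 5 of these were among the 7 platelet and megakaryocyte markers. All 8 platelet and megakaryocyte markers, 7 of them tested, summed to 7.32 to 9.41 TPM in FGL05 and 12.99 to 14.0 TPM in FGL01, without overlap. The sums of the 12 stellate cell markers did not overlap either, at 444 to 482 TPM in FGL05 and 491 to 522 TPM in FGL01. Those of 12 exocrine pancreas markers, 6 of them tested, were 17.1 to 39.5 TPM against 10.8 to 15.1 TPM. *Cela1* gave most of the pancreas sums, at 19.0, 16.5 and 37.8 TPM against 11.9, 9.32 and 10.9 TPM. In FGL40-2695 the 12 pancreas markers summed to 11786 TPM. This mouse was part of the fit over the 18 females and of the contrast between FGL05 and FGL40. Of the 6 pancreas markers tested, 5 had a log2 fold change below 0. Among single genes 26.8% of all tested did not overlap, and these sums carry no test. The 8 adipocyte markers, 6 of them tested, summed to 9.83 to 17.73 TPM in FGL05 and 17.74 to 25.05 TPM in FGL01. The 12 Kupffer cell markers summed to 592 to 805 TPM and 709 to 943 TPM, and these ranges overlapped.

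The other female *Gulo*-/- groups were set beside the step. In FGL40 *Mup22* had 17517, 22262 and 16411 TPM, *Cyp2f2* 523, 528 and 525 TPM and *Lrg1* 279, 267 and 345 TPM. In FGL00 they had 316, 370.1 and 620.0 TPM, 14.9, 29.2 and 43.5 TPM and 2114, 1848 and 1470.0 TPM, on the side of FGL01. Of the 189 named genes none had an adjusted p under 0.05 between FGL05 and FGL40 (0.532 to 1; 14 had an unadjusted p under 0.05, limma), which does not show that the levels are equal, and 25 had one between FGL01 and FGL00. These contrasts share mice with the dose step. *Mup22* was lower in FGL01 than in FGL00 (adjusted p = 0.00429), and the Mup genes summed to 20.5 to 326 TPM in FGL01 and to 453 to 830 TPM in FGL00. *Lcn2* had 488, 592 and 403 TPM in FGL00 and 34.1, 36.4 and 57.2 TPM in FGL40, the latter above the FGL05 mice. *Mlxipl* had 89.8, 102 and 94.5 TPM in FGL00 and 231, 223 and 232 TPM in FGL40.

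**Figure D4:**
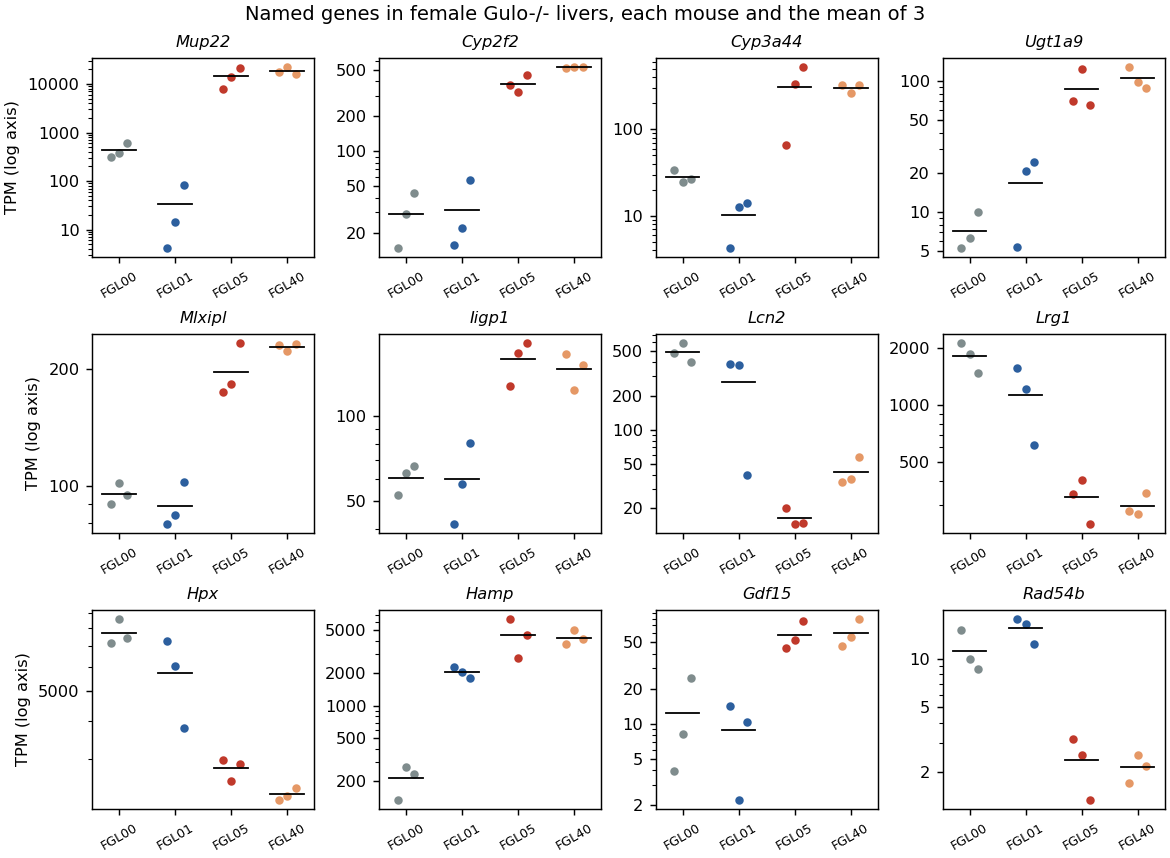
TPM (log axis) of 12 named genes in each mouse of FGL00, FGL01, FGL05 and FGL40, with the mean of 3 mice as a bar. In most of the panels FGL00 and FGL01 lie on one side and FGL05 and FGL40 on the other, and *Hamp* also separates FGL00 from FGL01.

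The same dose step in males differed for part of these genes. The difference of the steps, (FGL05 minus FGL01) minus (MGL05 minus MGL01), passed an adjusted p of 0.05 in 286 of 17859 genes tested (1.6%), in 154 with a higher and in 132 with a lower value for the female step. *Mup18* had 1208 ± 695 TPM in MGL01 and 1318 ± 105 TPM in MGL05 (SD, n = 3), against a rise from the lowest levels in females (difference 8.64 ± 0.77, adjusted p = 2.62e-07). *Mup22* (difference 7.76 ± 0.86, adjusted p = 8.79e-06), *Mup16* (6.44 ± 0.80, adjusted p = 6.02e-05) and *Mup10* (5.17 ± 0.55, adjusted p = 4.26e-06) had female steps above the male ones as well. *Mup7* went in males from 117 ± 121 TPM to 19580.5 ± 16326 TPM, and the difference did not pass (-3.11 ± 1.25, adjusted p = 0.201). *Cyp2a4* had 23.3 ± 13.4 TPM in MGL01 and 1.4 ± 1.85 TPM in MGL05 (difference 6.24 ± 1.04, adjusted p = 0.00295). *Cyp2f2* went from 447 ± 143 TPM to 696 ± 62.8 TPM in males (difference 3.06 ± 0.45, adjusted p = 0.000617). The difference lay the other way for *Mup12* (-4.10 ± 0.89, adjusted p = 0.0183) and for *Hsd3b5*, a steroid dehydrogenase of male liver that had 0.529 ± 0.0243 TPM in MGL01 and 45.3 ± 40.2 TPM in MGL05 (-3.82 ± 0.94, adjusted p = 0.0338). It also did so for *Pitx3*, a transcription factor (-2.54 ± 0.34, adjusted p = 0.000141), *Peg3* (-2.08 ± 0.40, adjusted p = 0.00931) and *Cyp2d9* (-1.97 ± 0.46, adjusted p = 0.0264). Of 35 acute phase genes 1 passed the test of the difference, and of 30 interferon-stimulated genes (29 tested) none, with male medians of -0.24 and 0.22. The MGL01 livers were uneven, with Mup shares of 2.96%, 2.63% and 0.660% of TPM in its 3 livers. The acute phase list took 1.87%, 1.93% and 4.51% of TPM in MGL01 and 2.12%, 2.97% and 2.24% in MGL05. MGL01-2713 alone lay above the MGL05 livers, and the other MGL01 livers lay below all of them. The count of 286 became 2 when the 12 mice alone were fitted, 67 without FGL05-2896, 101 without FGL01-2722, 102 without MGL01-2711, 81 without MGL01-2712, 158 without MGL05-2898, 456 without FGL05-2895, 828 without MGL01-2713 and 985 without FGL01-2724.

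**Figure D5:**
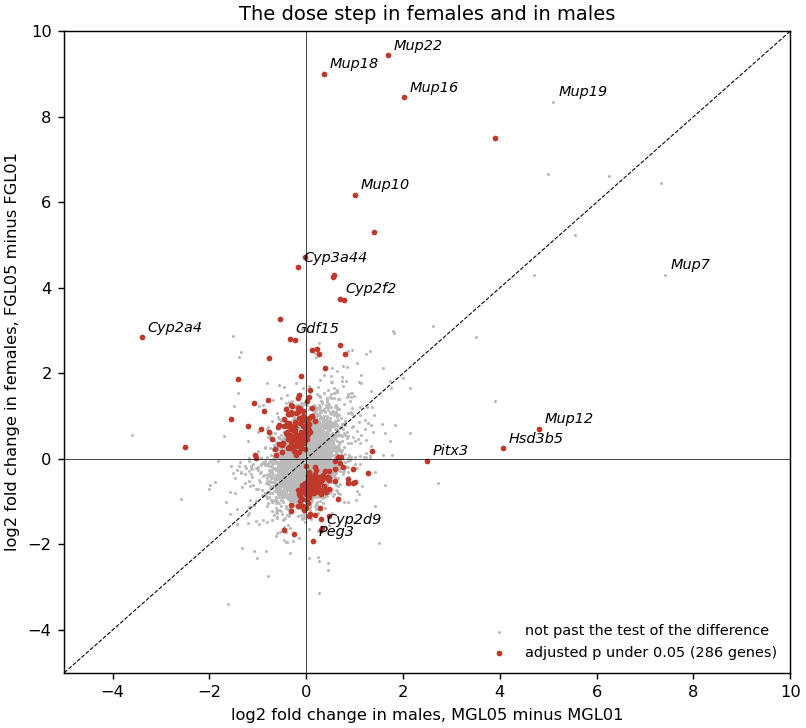
The log2 fold change of the dose step in males (horizontal axis, MGL05 minus MGL01) and in females (vertical axis, FGL05 minus FGL01) for the 17859 genes tested in both sexes, with the 286 genes past the test of the difference in red and equal steps on the dashed line. *Mup18*, *Mup22*, *Mup16* and *Mup10* lie at the top, and *Mup12*, *Hsd3b5* and *Pitx3* lie on the side of the males.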

How the data were processed

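The authors extracted total RNA from whole liver, prepared strand-specific poly(A) libraries, trimmed reads with fastp 0.20.0 and quantified transcripts of Ensembl 104 with kallisto 0.46.2 (versions per the labels). They deposited TPM for 36066 genes in 36 mice, which sum to 1000000 per mouse. How transcripts were summed into genes is not given in the sources used here. Because TPM keep neither counts nor depth, counting intervals and count models could not be used, and each level is relative to all others. Genes were named by the deposited symbols and, for 9473 rows, by Ensembl identifier in GENCODE M21, and 184 rows stayed without a symbol.

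Mice were grouped by the names in their labels. The label of MGLR40-2831 describes a female, and this mouse was fitted as a male by its name. Its level of the Y-linked gene *Kdm5d* was 5.23 TPM. limma 3.58.1 (R 4.3.3, statmod 1.5.0; group means, with moderated variances that follow the mean level and resist outlying genes) was fitted to log2(TPM + 1) of the 18 females over genes above 0 in 4 or more of the 6 mice compared, and to all 36 mice for the difference between the sexes (above 0 in 4 or more of 6 mice of each sex). Fold changes are on the log2(TPM + 1) scale, which understates those of low genes, and errors are standard errors of the fit or SD of 3 mice. P-values are two-sided and Benjamini-Hochberg adjusted over all genes tested. Calling a gene needed an adjusted p under 0.05 and mean TPM differing by a ratio over 2. Shares of TPM were compared by exact permutation. Tested on simulated data with the means and spread of these genes, the fit recovered most genes changed by known folds, in the right direction. The simulated noise was independent between genes and had the same spread in all groups, and changes were set only in genes above about 5 TPM. It therefore does not cover uneven mice, genes that vary together or changes in low genes.

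The 44 gene lists and 17 marker lists, the rules and the genes compared were chosen with earlier results of these data known, and the lists overlap. Named genes are the 15 largest rises and 15 largest falls among called genes that reached a mean of 5 TPM in the higher group and did not overlap, without predicted genes and pseudogenes; for each list the 4 most abundant members past the adjusted p, or the most abundant one; the 7 transcripts assayed by RT-PCR, *Gulo* and Y-linked genes; and the 5 largest differences between the sexes in each direction. Other members past the test, among them *Fasn*, are named to complete a list and were chosen after their values were seen. Promoters and motifs were read from the RefSeq table on GRCm38.p6, and 31-base words from GENCODE M21. Alternatives tried were rescaling without Mup genes, median-ratio scaling, log2(TPM + 0.1), no filter, TPM of at least 1 in 3 of 6 mice, TPM above 0 in 13 of 18 females, the compared mice alone, 12 females, array weights, no trend or robust estimate, no ratio, and leaving out each mouse. Other steps used matplotlib 3.10.9, scipy 1.17.1, numpy 2.4.6 and pandas 2.3.3 under Python 3.11.15. Proteomics and RT-PCR were not analysed here, and a few genes are not reported here.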

Additional observations from a re-analysis of the deposited data

Results flagged for a closer look

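Among the 187 named genes that were tested in both sexes, 33 were picked out because their female step (FGL05 minus FGL01) differed from the male step (MGL05 minus MGL01) with an adjusted p under 0.05, and 27 of them had the higher value in females. Most named genes were chosen on their female step and 10 on this difference, so both counts depend on that choice. Over all genes, 286 of 17859 (1.6%) passed, 154 with a higher and 132 with a lower value for the female step. The differences on the log2 scale were, for Mup genes, *Mup18* (8.64), *Mup22* (7.76), *Mup16* (6.44), *Mup10* (5.17), *Mup3* (3.91) and *Mup11* (3.60). For P450s, transferases and carriers they were *Cyp2a4* (6.24), *Cyp3a16* (4.74), *Cyp3a44* (4.64), *Cyp3a41a* (3.81), *Cyp2f2* (3.06), *Cyp2c40* (2.40), *Akr1c6* (1.53), *Slco1b2* (1.36), *Gstt1* (1.14) and *Sult1a1* (1.02). For the other genes with a higher female value they were *Gdf15* (3.15), *Rgn* (1.43), *Ugp2* (1.08), *Dgat2* (1.01), *Cyb5r3* (0.96), *Klkb1* (0.58), *Otc* (0.56), *Apoc3* (0.55), *Serpind1* (0.45), *Prdx6* (0.44) and *Gc* (0.36). The 6 genes with the lower female value were *Mup12* (-4.10), *Hsd3b5* (-3.82), *Pitx3* (-2.54), *Peg3* (-2.08), *Cyp2d9* (-1.97) and *Bmper* (-1.51). The count over all genes rests on single mice of both sexes, as given above, so a single gene near the threshold carries little weight. Groups of 3 mice are too small for a test of single outlying mice.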

How the results depend on the processing

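No paired analysis was possible because the animal numbers of FGL05 and FGL01 differ and nothing in the labels ties a mouse of one group to a mouse of the other. The 603 calls (259 higher, 344 lower) became 17 (14 higher, 3 lower) with the spread taken from the 6 mice alone, 2267 (708 and 1559) without the criterion on the ratio, and 277 to 945 (139 to 374 higher, 138 to 571 lower) when 1 mouse was left out. The lower calls numbered 224 after median-ratio scaling, 224 with TPM of at least 1 in 3 of 6 mice and 576 with array weights. Median-ratio scaling gave 554 calls, 482 of them among the 603, array weights gave 869, and the remaining settings gave 455 to 606. The 286 genes whose step differed between the sexes became 485 after median-ratio scaling, 491 without the Mup genes, 2 with the 12 mice alone and 67 to 985 with 1 mouse left out. Of the 173 named genes past the adjusted p, 145 stayed past it after median-ratio scaling, 11 with the 6 mice alone, 83 without FGL05-2896, 101 without FGL01-2722, 120 without FGL01-2723, 135 or more without any of the other 3 mice, and 78 in each of the 6 fits that left out 1 mouse. No named gene past the adjusted p changed direction under any setting. Depth could not be used to weigh low genes, since TPM hold no counts.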
